A study of Mus musculus with 6 samples.

Results

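Sox10, Foxd3, Erbb3, Phox2a and Ret are 5 of the 32285 genes counted in single cells of the mouse cardiogenic region at embryonic day E10.5, taken by exact match of their symbols. They are regulators and receptors of neural crest cells, of the glia the crest forms, and of autonomic neurons. All embryos were wild type C57BL/6, and the microdissected tissue, labelled embryonic heart, also held other lineages by the labels' account. The mothers had been pretreated with vehicle (3 samples) or with streptozotocin, a drug toxic to insulin-producing cells that raises blood glucose (3 samples). The sires in both arms had normal blood glucose. The question behind the series is maternal diabetes. The descriptions in the labels name a chromatin assay where the titles and the kit name RNA, and the whole-number values per gene were read as RNA counts.

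The deposited matrix pools 6 libraries, told apart by a number at the end of each cell barcode, and no file used here pairs a library with a sample. The treatments were therefore not compared, the matrix counts as 1 sample, and no test was run. Values are given for libraries 1 to 6 without a treatment. Of 53362 barcodes, 35962 (67.4%) held at least 2500 genes and at most 10% mitochondrial UMIs, between 4903 and 7136 per library. A UMI, or unique molecular identifier, marks 1 captured RNA molecule. Median depth was 30533 to 35634 UMIs per retained cell. Of the retained cells, 2890 (8.04%) carried a barcode sequence that occurs in more than 1 library, from 1.53% in library 3 to 14% in library 4. Doublets were not removed, except in an alternative.

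Cell types were gated by markers, and none of the 5 genes is a marker. Each of 18 lists held 8 markers, and a cell entered a gate with a UMI of at least 4 of them and of more than of any other list. Of the retained cells, 24671 (68.6%) entered a gate. The glial gate (among its markers Cdh19, Fabp7, Gfra3, Ngfr, Ednrb and Lgi4) held 236 cells. The neuronal gate (Elavl3, Elavl4, Stmn2, Nefl, Nefm, Ina, Dcx and Tubb3) held 341. Another 60 cells met both lists and are called glial-neuronal. A gate is a range of marker counts and not a proven type. In the glial gate 44 cells lay at exactly 4 markers, against 353 cells at 3 glial markers among all cells, and in the neuronal gate 100 lay at 4, against 1017 at 3. Glial-gate cells had UMIs of a median of 5 glial, 2 neuronal and 3 crest mesenchyme markers. In glial-neuronal cells the medians were 5, 5 and 3, and in neuronal-gate cells 1, 6 and 1. The crest mesenchyme list was Dlx1, Dlx2, Dlx5, Dlx6, Barx1, Prrx2, Twist1 and Tfap2b. Cardiomyocytes, the cells of the labelled organ, made up 3467 gated cells. Libraries differed in how many of these cells they held. The glial gate had 9, 19, 19, 53, 83 and 53 cells, the glial-neuronal gate 3, 6, 6, 4, 29 and 12, and the neuronal gate 30, 57, 18, 93, 83 and 60.

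As background, the neural crest leaves the dorsal neural tube and forms mesenchyme of the face and outflow tract, Schwann cells and other glia, pigment cells and much of the peripheral nervous system. Sox10 and Foxd3 are transcription factors of migrating crest that persist in glial precursors, where Erbb3 receives neuregulin signals. Cells that become autonomic neurons turn on paired homeodomain factors, Phox2a among them, and many use Ret, the receptor kinase of the GDNF family. Phox2a is also known in cranial visceral sensory ganglia, which come largely from epibranchial placodes, and in cranial motor neurons.

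Sox10, an HMG-box factor required for crest glia, lies on chromosome 15 from 79154908 to 79165240 on the minus strand (GRCm38, the mm10 assembly). Its level in the glial gate was 202 CPM, that is, UMIs per 1000000 UMIs summed over the gate's cells (exact 95% Poisson interval 193 to 211). Over the 6 libraries it ran from 170 to 224 CPM with a median of 194. The glial-neuronal gate stood at 170 CPM (154 to 188) and the neuronal gate at 2.96 CPM (2.03 to 4.15). In the glial gate Sox10 was 1.18 times the glial-neuronal level (1.06 to 1.33) and higher in 5 of 6 libraries, and it was 68.3 times the neuronal level (48.5 to 99.5). With likely doublets left out, the glial and glial-neuronal levels were closer, at 208 and 192 CPM. No library of the neuronal gate exceeded 6.33 CPM, so the glial and neuronal ranges did not overlap. Sox10 had a UMI in 97.5% of glial, 95% of glial-neuronal and 3.52% of neuronal cells. Erythroid cells, which should lack it, had one in 0.34% of cells at a median of 65268 UMIs, against 36556 in glial cells. All intervals cover counting error only.

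Foxd3, a forkhead factor of crest progenitors, lies on chromosome 4 from 99656299 to 99658622 on the plus strand. A neighbouring non-coding gene on the other strand, Gm12688, starts 1315 bases away, and both were most abundant in the glial and glial-neuronal gates. The 250 bases before the Foxd3 start, which face Gm12688, are shown for that reason, next to those of Phox2a, which was high in the neuronal gate and low in the glial gate where Foxd3 was the reverse. Both are RefSeq sequences of GRCm38.p6, 5′ to 3′ on the gene's strand, and 2 of the 5 genes had an entry in the table used.
Foxd3 chr4:99656049-99656298, plus strand: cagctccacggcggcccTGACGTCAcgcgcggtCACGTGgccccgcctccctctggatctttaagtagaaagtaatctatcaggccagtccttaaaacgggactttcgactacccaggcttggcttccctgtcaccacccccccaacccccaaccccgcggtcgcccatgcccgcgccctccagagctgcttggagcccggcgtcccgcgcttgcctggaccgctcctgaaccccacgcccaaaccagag
Phox2a chr7:101818063-101818312, plus strand: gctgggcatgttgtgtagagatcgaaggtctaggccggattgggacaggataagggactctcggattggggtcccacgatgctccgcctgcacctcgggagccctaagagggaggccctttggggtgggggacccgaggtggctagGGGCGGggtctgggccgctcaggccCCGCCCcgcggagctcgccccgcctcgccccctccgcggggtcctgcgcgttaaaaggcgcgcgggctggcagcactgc
Capitals mark matches of 3 of the 5 motifs searched on both strands. In Foxd3 they are a cAMP response element, TGACGTCA, held by 1.55% of 32817 promoters of this length, and an E-box, CANNTG, held by 66.2%. In Phox2a they are 2 GC boxes, GGGCGG on either strand, held by 32.7%. A homeodomain core, ATTA, held by 54.9%, occurred 1 time in Foxd3 and not in Phox2a. A SOX motif, ACAAAG, held by 16.5%, occurred in neither window. The windows had a GC content of 65.6% (Foxd3) and 70.4% (Phox2a), against a median of 52.4%. A match describes letters and is not a binding site.

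Foxd3 stood at 176 CPM (167 to 185) in the glial gate, 166 CPM (150 to 184) in the glial-neuronal gate and 2.06 CPM (1.31 to 3.09) in the neuronal gate. Its glial level by library ran from 136 to 208 CPM with a median of 185, and no neuronal library exceeded 5.27 CPM. Glial and glial-neuronal levels did not differ beyond counting error, with a ratio of 1.06 (0.945 to 1.19) and the glial level higher in 3 of 6 libraries. Foxd3 had a UMI in 93.2%, 93.3% and 2.05% of glial, glial-neuronal and neuronal cells, against 0.068% of erythroid cells. No Foxd3 UMI was found in the branchiomeric muscle, mural or neural progenitor gates, which at 3 counts allows up to 0.217, 0.229 and 1.95 CPM. Gm12688 followed the same gates at 26.1, 37.1 and 0.717 CPM, and 231 of its 252 cells had a Foxd3 UMI. Next to Sox10, the opposite-strand gene Gm10863 begins 800 bases away and stood at 11.2, 9.71 and 0.0896 CPM, and 130 of its 185 cells had a Sox10 UMI. Whether strand was used in counting is not given in the sources used here.

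Erbb3, a receptor that binds neuregulins and signals chiefly by pairing with Erbb2, lies on chromosome 10 from 128567523 to 128589652 on the minus strand. It was the least restricted of the 5 genes. Erbb3 stood at 90.5 CPM (84.5 to 96.9) in the glial gate, 81.7 CPM (70.3 to 94.3) in the glial-neuronal gate and 4.93 CPM (3.71 to 6.41) in the neuronal gate. Its glial level by library ran from 62.2 to 99.2 CPM with a median of 90.5. The glial and glial-neuronal levels did not differ beyond counting error (ratio 1.11, 0.944 to 1.31, glial higher in 2 of 6 libraries). Among gates with at least 50 cells, a second tier lay outside the crest glia. Erbb3 stood at 23.8 CPM in endoderm, 23 CPM in surface ectoderm and 21.6 CPM in cushion mesenchyme, a gate named for cells of the future valves. Neighbours in that order had ratios of 1.04 (0.935 to 1.15) and 1.06 (0.952 to 1.19), within counting error. In every library cushion mesenchyme held 16.2 to 34.5 CPM, endoderm 21.9 to 26.2 CPM and surface ectoderm 14.8 to 29.1 CPM, so the 3 ranges overlapped. Erbb3 UMIs were in 91.1% of glial, 85% of glial-neuronal, 9.38% of neuronal, 48.2% of endoderm, 38.2% of surface ectoderm and 33.1% of cushion cells, and in 1.36% of erythroid cells. The neural progenitor gate, with 45 cells, stood at 15.6 CPM (9.98 to 23.2), with an Erbb3 UMI in 35.6%. Of all Erbb3 UMIs, 9.86% lay in the glial gate, against 42.8% for Sox10 and 56.8% for Foxd3.

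Ret, the receptor tyrosine kinase that answers GDNF-family ligands through GFRA co-receptors, lies on chromosome 6 from 118151745 to 118197718 on the minus strand. Compared over gates with likely doublets kept, it alone of the 5 genes had its own highest pooled level in the cells that met both marker lists. Likely doublets were 10% of those cells. With them left out, Foxd3 also stood higher in the glial-neuronal than in the glial gate. Ret stood at 107 CPM (94.2 to 122) in the glial-neuronal gate, 47.5 CPM (43.1 to 52.2) in the glial gate and 30.5 CPM (27.4 to 34) in the neuronal gate. The glial-neuronal level was 2.26 times the glial one (1.92 to 2.65) and higher in 6 of 6 libraries. By library the glial-neuronal level ran from 79 to 171 CPM with a median of 108, and the glial level from 33.3 to 56.6 CPM with a median of 44.2. Those ranges did not overlap, although libraries 1 and 4 rest on 3 and 4 glial-neuronal cells. The glial level was 1.55 times the neuronal one (1.35 to 1.8) and higher in 5 of 6 libraries. With a neuronal gate of at least 5 markers the neuronal level was 46.5 CPM. Ret had a UMI in 56.4% of glial, 85% of glial-neuronal and 25.2% of neuronal cells, against 0.204% of erythroid cells. Among the other gates with at least 50 cells the highest level was 1.45 CPM, in endoderm, and the neuronal level was 21 times that (16.6 to 26.8).

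Phox2a, a homeodomain factor of noradrenergic and visceral neurons, lies on chromosome 7 from 101818313 to 101822726 on the plus strand. Its span overlaps Inppl1 on the other strand, and Inppl1 stood at 17.1 CPM in the neuronal gate and 15.9 CPM over all retained cells, so its level did not follow that of Phox2a. Phox2a stood at 397 CPM (385 to 409) in the neuronal gate, 30.5 CPM (23.7 to 38.6) in the glial-neuronal gate and 0.767 CPM (0.309 to 1.58) in the glial gate. Across libraries the neuronal level ran from 169 CPM in library 3 to 512 CPM in library 1 with a median of 388. The lowest neuronal library lay above the highest glial one, at 4.3 CPM. The glial-neuronal level was uneven, at 0, 5, 55.4, 0, 11.8 and 93.2 CPM in libraries 1 to 6. It was 14.9 CPM without library 6 and 51.1 CPM without library 5. Phox2a had a UMI in 76.5% of neuronal, 21.7% of glial-neuronal and 2.12% of glial cells, against 0.408% of erythroid cells.

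**Figure D1:**
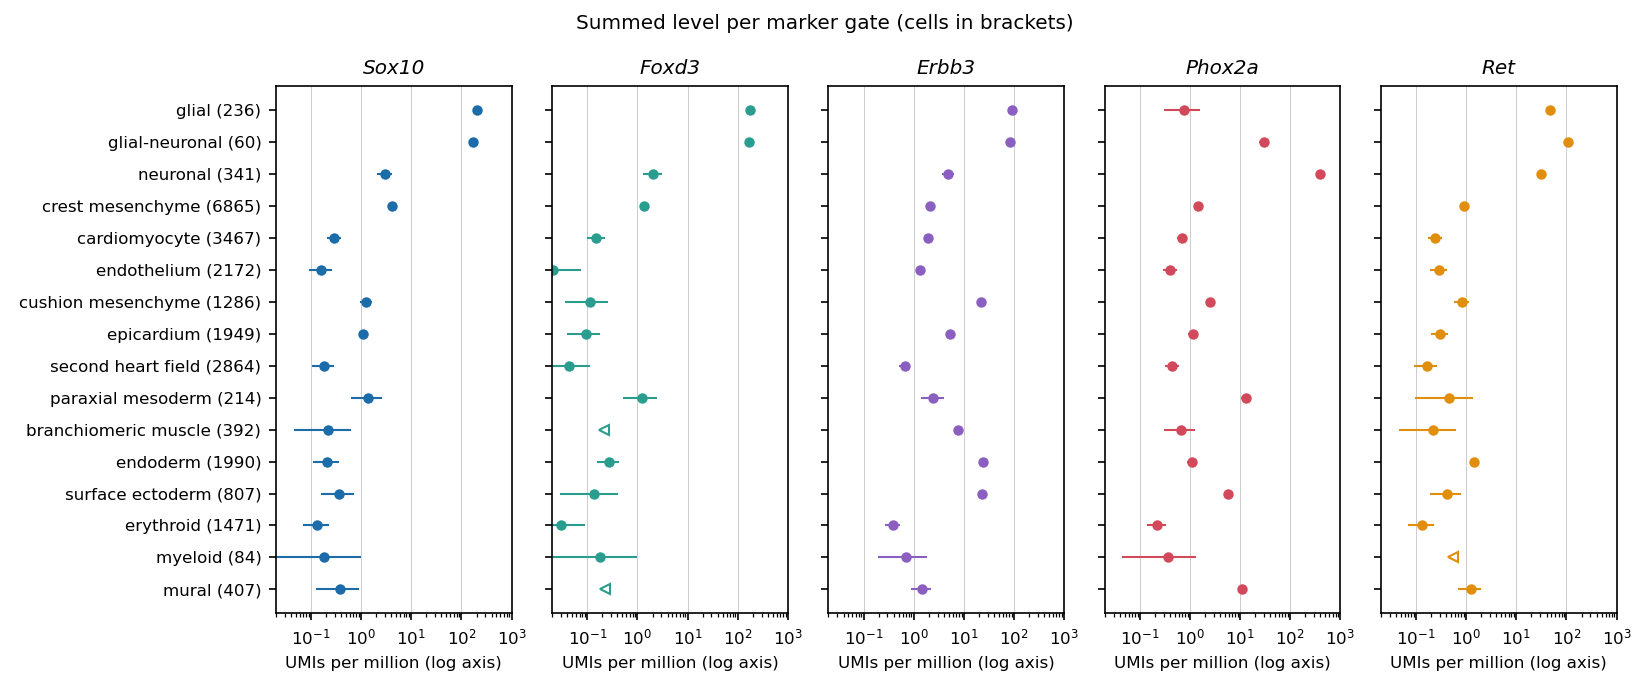
Level of each gene (CPM, log axis) in the 16 gates with at least 50 cells. Points are sums over all cells of a gate, bars are exact 95% Poisson intervals trimmed at the left edge, and open triangles mark the limit of 3 counts where no UMI was found. Sox10 and Foxd3 stand at 166 to 202 CPM in the glial and glial-neuronal gates, Phox2a at 397 CPM in the neuronal gate, and Erbb3 has a second tier at 21.6 to 23.8 CPM in cushion mesenchyme, surface ectoderm and endoderm.

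**Figure D2:**
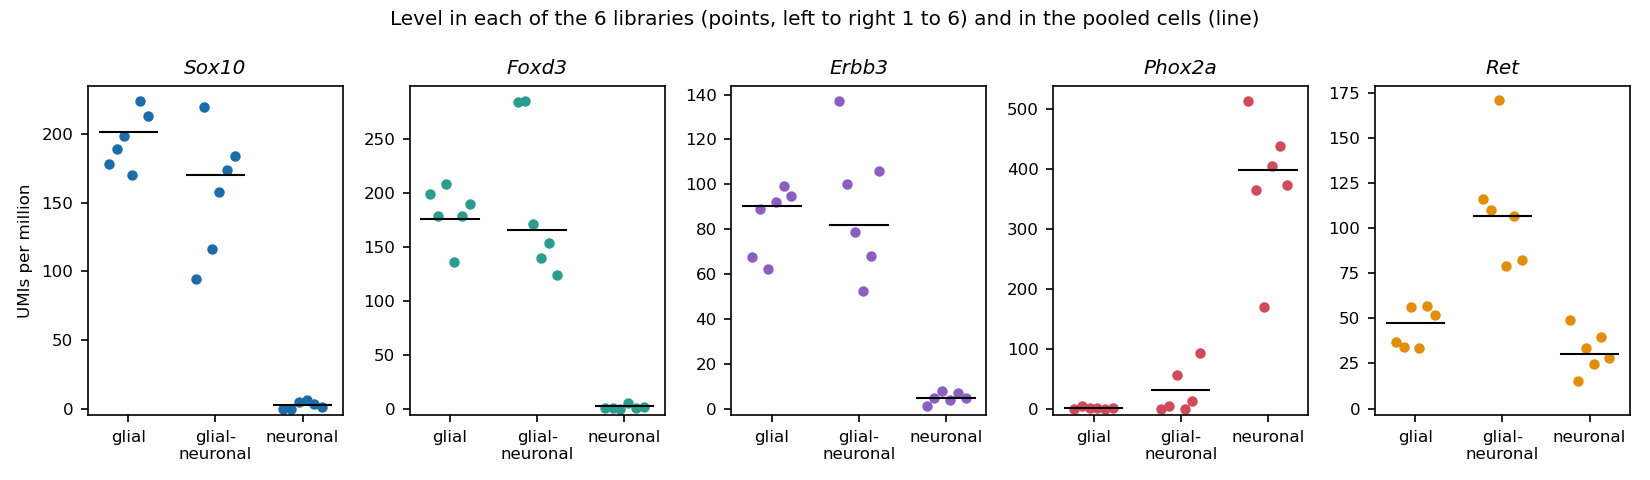
Level of each gene (CPM, linear axis with its own scale for each gene) in libraries 1 to 6, left to right within each gate, with a line at the level pooled over libraries. Sox10 lies between 170 and 224 CPM in every library of the glial gate, while Phox2a in the glial-neuronal gate varies from 0 to 93.2 CPM.

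Depth differed between the gates, with medians of 36556 UMIs in glial, 35069 in glial-neuronal and 29408 in neuronal cells. When each cell was thinned to 5000 UMIs, the shares with a UMI in the glial, glial-neuronal and neuronal gates were 60.2%, 61.7% and 1.17% for Sox10. They were 54.7%, 50% and 0.293% for Foxd3, and 34.7%, 43.3% and 3.23% for Erbb3. For Ret they were 18.6%, 36.7% and 8.21%, and for Phox2a 0.847%, 8.33% and 65.4%. The order of the 3 gates for Ret and Phox2a was the same as at full depth. The glial and glial-neuronal shares of Sox10, Foxd3 and Erbb3 had overlapping exact intervals at this depth, so no order is read from them.

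For a comparison over all genes, each gate was set against all other gated cells. A gene was called at a fold of at least 4, with at least 10 CPM on the higher side and the same direction in each library with at least 20 cells on both sides. In the glial gate 4 of the 5 genes were called higher, where 1.74% of 9236 genes were called higher and 5.58% lower. Foxd3 was 204-fold higher (187 to 222), Sox10 110-fold (103 to 117), Ret 42.2-fold (37.7 to 47.2) and Erbb3 18.1-fold (16.8 to 19.5), each in all 3 libraries that met the cell minimum. Phox2a did not reach 10 CPM on either side. The members called here and in the comparisons that follow reached 10 CPM only on the side where they were higher, so their calls restate that level. Foxd3 had the largest fold of the genes called higher. It was followed by Gm12688, Gm38505, Gm10863 and Sox10, and Insc was also among the 10 leading genes. In the neuronal gate 2 of the 5 were called higher, where 4.51% of 9631 genes were called higher and 2.76% lower. They were Phox2a, 291-fold higher (273 to 309), and Ret, 25.1-fold (22.2 to 28.3). Sox10, Foxd3 and Erbb3 did not reach 10 CPM on either side there and were not tested. The genes with the largest folds there included Xkr7, Neurod1 at 302 CPM, Tlx3 at 181 CPM and Tlx2 at 285 CPM, the last 3 of which are neuronal transcription factors.

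In the glial gate Sox10, Foxd3 and Erbb3 had a UMI in 97.5%, 93.2% and 91.1% of cells. A large joint share follows from these single shares. All 3 genes had a UMI in 204 of 236 glial cells (86.4%) and 51 of 60 glial-neuronal cells (85%). The same held in 3 of 341 neuronal cells (0.88%), and in 0 of 1286 cushion cells (exact upper limit 0.286%). Sox10 was found in more cells than Foxd3, which by itself makes their shares of joint cells unequal. Over all retained cells, 437 of 464 cells with Foxd3 also had Sox10 (94.2%, exact binomial 95% interval 91.6 to 96.1), whereas 37.2% of 1175 cells with Sox10 had Foxd3. Within the glial gate, where nearly all cells had both, the joint share was 92.4% against a product of the single shares of 90.9%. Thinned to 5000 UMIs it was 36% against 32.9%.

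Ret was detected in a part of the glial gate, in 56.4% of cells at full depth and 18.6% when thinned to 5000 UMIs. The combination of Sox10, Foxd3, Erbb3 and Ret was found in 115 glial cells (48.7%), and the first 3 without Ret in 84 (35.6%). In the glial-neuronal gate the 4-gene combination was found in 36 cells (60%), and all 5 genes in 8 (13.3%). Among glial cells with a Ret UMI, 115 of 133 (86.5%) had Gfra1, a GDNF co-receptor, against 55 of 103 (53.4%) without. Median depth was 38156 UMIs with Ret and 35233 without, and the part of depth in these shares was not tested.

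Over all genes, the Ret-detected glial cells differed from the undetected ones in few genes. At the same fold and level, and in each library with at least 10 cells on both sides, 0.0687% of 8736 genes were called higher and 0.0801% lower, 6 and 7 genes. Ret itself defined the split, and Sox10 (190 against 219 CPM), Foxd3 (190 against 155 CPM) and Erbb3 (95.1 against 84 CPM) were not called. Higher with Ret were Srrm4, Epha6, Cpne8, Rnf17 and Nefm, the last a neurofilament gene of the neuronal gate list, at 95.1 against 21.5 CPM. Among those lower were Dqx1, Opcml, Ebf2 at 4.62 against 40.6 CPM, Lpar1, Ptn and Cdh11. Without library 5 or 6 the count of higher genes was 13 or 11. None of the genes tested in the lists of crest specifiers (7) or Ret ligands and co-receptors (2) was called.

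In neurons at full depth, Ret was found in a larger share of cells with Phox2a than without, in each library. Of 261 neuronal-gate cells with Phox2a, 78 (29.9%) had Ret, against 8 of 80 (10%) without (exact 95% intervals 24.4 to 35.8 and 4.42 to 18.8). By library the Ret share ran from 27% to 37.5% with Phox2a and from 0% to 21.4% without, and it was closest in library 5, at 27.5% against 21.4%. Thinned to 5000 UMIs, Ret was in 7.17% of neuronal cells with Phox2a, against 28 of 341 neuronal cells in all (8.21%). The gate holds cells with and without Phox2a, so at that depth the Ret share was lower with Phox2a than without. This is the reverse of full depth, and Ret was found in few thinned cells. The 80 cells without Phox2a are spread over 6 libraries, and the depth of the compared cells was not tested. Phox2a alone of the 5 genes was found in 165 neuronal cells (48.4%), Phox2a with Ret in 70 (20.5%), and none of the 5 in 61 (17.9%). The 12 neuronal-gate cells with a Sox10 UMI had Ret in 8 cells (66.7%) and Phox2a in 6. Of the 57 glial-neuronal cells with Sox10, 10 (17.5%) had Phox2a.

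Cells of the 3 gates were also grouped by the number of neuronal markers detected, a grouping chosen after the data were seen. The neuronal and glial-neuronal gates require at least 4 such markers, so the groups at 0 or 1 (85 cells) and at 2 or 3 (138 cells) can hold only glial-gate cells, and differences from the groups with more markers follow from the gates. Between these 2 glial groups the shares of cells with Sox10 were 94.1% and 99.3%, with Foxd3 88.2% and 95.7%, and with Erbb3 89.4% and 91.3%. Ret was in 37.6% and 65.9%, at 24.3 CPM (19 to 30.6) and 55.4 CPM (49.4 to 61.9). The depth of the 2 groups was not compared.

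In crest mesenchyme, the largest gate at 6865 cells, Sox10 stood at 4.07 CPM and had a UMI in 477 cells (6.95%). By library it ran from 1.34 to 8.82 CPM. This gate held 26% of all Sox10 UMIs and 13.5% of those of Foxd3. Cells with and without a Sox10 UMI were compared, a split chosen after the data were seen. Foxd3 was in 73 of 477 cells with Sox10 (15.3%) and in 4 of 6388 without (0.0626%). Erbb3 was in 129 of 477 (27%) against 155 of 6388 (2.43%), and Ret in 51 of 477 (10.7%) against 76 of 6388 (1.19%). Foxd3, with 376 UMIs against 4, was 1024-fold higher (397 to 3778) and Erbb3 12.4-fold (13.1 against 1.05 CPM). Both were called, where 0.428% of 8417 genes were called higher and 0.0119% lower. Ret was 21.5-fold higher (16.4 to 28.4) but did not reach 10 CPM. With Sox10 at 2 UMIs or more (195 cells) Ret reached 14.2 against 0.33 CPM and was called, where 0.798% of 8517 genes were called higher and 0.129% lower. Pax3 (18.6 against 1.69 CPM), Cdh19, Sox2ot and Insc were also higher with Sox10. Gsc, at 4.72 against 20.6 CPM, was the 1 gene called lower, and it was not called without library 3. Median depth was 45470 UMIs with Sox10 and 39176 without, and the part of depth in these shares was not tested.

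**Figure D3:**
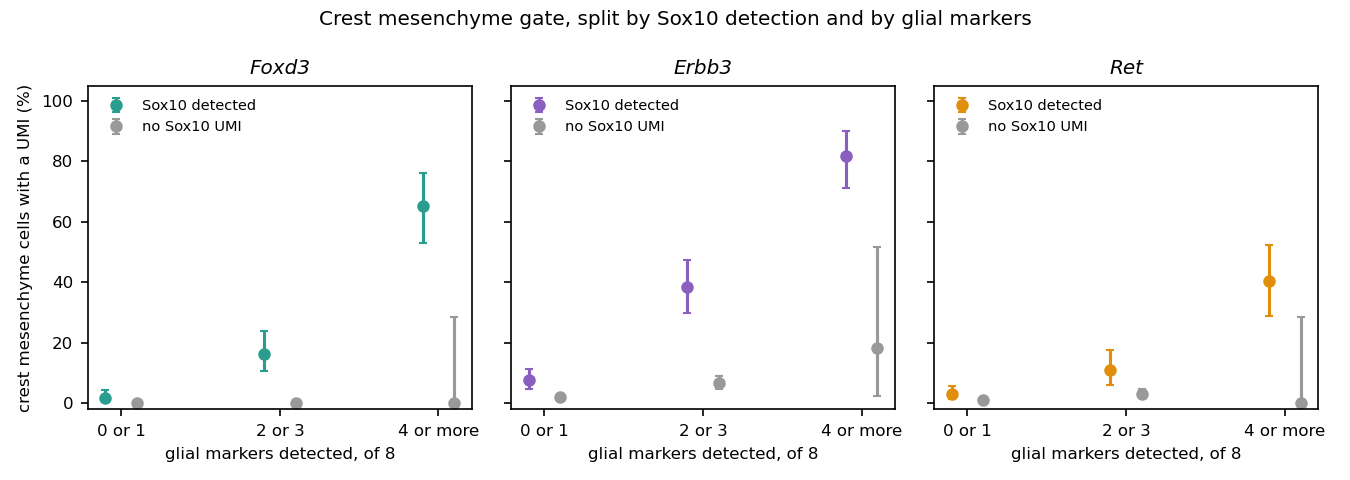
Percent of crest mesenchyme cells with a UMI of Foxd3, Erbb3 or Ret by the number of glial markers detected (0 or 1, 2 or 3, 4 or more), for cells with a Sox10 UMI (coloured) and without (grey), with exact 95% binomial intervals. With Sox10, Foxd3 goes from 1.81% to 65.3% and Erbb3 from 7.58% to 81.9%. The grey group at 4 or more markers holds 11 cells.

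The co-detection in crest mesenchyme went with glial markers. Among Sox10-detected cells with 0 or 1, 2 or 3, and 4 or more glial markers (277, 128 and 72 cells), Foxd3 was in 1.81%, 16.4% and 65.3%. Erbb3 was in 7.58%, 38.3% and 81.9%, and Ret in 2.89%, 10.9% and 40.3%. Median depth in these groups was 42421, 44742 and 62202 UMIs. Most Sox10-detected crest mesenchyme cells thus had few glial markers and rarely Foxd3. Dlx2 was in 92.1%, 96.9% and 98.6%, but it is a marker of the gate, so high shares follow in part from the gate. Among the 5811, 566 and 11 cells without Sox10, Erbb3 was in 2%, 6.54% and 18.2%, and Foxd3 in 0.0516%, 0.177% and 0 cells. Another 50 cells were tied between the glial and crest mesenchyme lists and sit in neither gate. All of them had Sox10, at 148 CPM, and 80% had Foxd3, 92% Erbb3 and 36% Ret.

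Sox10 was also detected in a few cells of other gates. In cushion mesenchyme Sox10 stood at 1.24 CPM (44 cells), with Erbb3 in 33 of those 44 (75%) against 393 of 1242 without Sox10 (31.6%), and with Foxd3 in none of them (exact upper limit 8.04%). In epicardium 76 cells had Sox10, with Erbb3 in 53.9% against 13%. Those 76 cells also had the erythroid gene Hba-x at 1912 CPM against 26.9 CPM, with a UMI in 73.7% against 63.8%, and its part in the result was not tested.

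Cushion mesenchyme cells with and without an Erbb3 UMI were compared, a split chosen after the data were seen. Of the 1286 cells, 367 lay at exactly 4 markers of the gate, and 426 had an Erbb3 UMI. Median depth was 35044 UMIs with Erbb3 and 31940 without, and the part of depth in the split was not tested. At a fold of at least 4, 0.499% of 9218 genes were called higher with Erbb3 and 0.618% lower. Higher were Papss2, a sulfation enzyme gene and marker of the gate (144 against 20.1 CPM), Ptprb (87.5 against 14.2 CPM), Tspan8, Gabrp, Nfix and Dhh, a hedgehog ligand (12.6 against 2.03 CPM). Lower were Foxf1 (4.79 against 59.8 CPM), Ebf2 (4.36 against 48 CPM), Ndnf, Alx1 and Ntrk3. Erbb2 stood at 12.8 against 10 CPM. Of the crest specifiers, 1 of 7 tested was called higher, Tfap2b at 13.1 against 2.85 CPM. Sox10 stood at 2.8 CPM with Erbb3 and 0.378 CPM without. The erythroid factor Klf1 was also higher with Erbb3, at 19.5 against 3.09 CPM, and its part in the split was not tested.

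Strong Phox2a cells were not confined to the neuronal gate. Of 433 cells with at least 5 Phox2a UMIs, a threshold chosen after the data were seen, 236 (54.5%) were neuronal and 118 (27.3%) entered no gate. Of the 192 outside the glial, glial-neuronal and neuronal gates, 64 (33.3%) had 3 or more neuronal markers. These 118 cells came from every library, with 10, 19, 11, 24, 25 and 29 cells, and had a median of 1 neuronal marker and 26286 UMIs. Neurog2, a proneural factor of placodal and sensory neuron precursors, was in 111 of them (94.1%, 588 CPM), against 1.94% (2.4 CPM) of the 9225 cells of no gate without Phox2a. Epcam, an epithelial adhesion gene, was in 113 of them (930 CPM), against 35.1% (236 CPM) of the cells without Phox2a. Of the 118 cells, 108 had both Neurog2 and Epcam. Sox10 was in 1.69% of them, Foxd3 in none and Ret in 16.1%. Among cells outside the 3 gates, 168 of 223 (75.3%) with at least 3 Sox10 UMIs had 3 or more glial markers. The same held for 111 of 123 (90.2%) with at least 2 Foxd3 UMIs and for 44 of 66 (66.7%) with at least 3 Ret UMIs. For Erbb3 it did not, but the UMI threshold differed between these genes. Of 443 cells with at least 4 Erbb3 UMIs, 314 (70.9%) lay outside the 3 gates, and 65 of those (20.7%) had 3 or more glial markers.

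In the smaller gates Phox2a rested on few cells. It stood at 13.1 CPM in paraxial mesoderm from 8 of 214 cells, at 5.74 CPM without library 1 and 38 CPM without library 5, and at 0.336 CPM in a gate of at least 5 markers. In mural cells it stood at 10.9 CPM from 9 cells, at 6.52 CPM without library 4, and at 1.16 CPM in a gate of at least 5 markers.

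The pathway genes around these receptors and factors are given by list. A gene entered a comparison only at 10 CPM on one side, and genes that reached it only where they were high had to be higher there, so the counts describe and support nothing about a list. Of the 7 Ret ligands and co-receptors that were no glial marker, 2 reached 10 CPM in the glial comparison, through the glial side. They were Gfra1, at 119, 169 and 179 CPM in the glial, glial-neuronal and neuronal gates, and Gfra2, at 17.9, 12.4 and 6.54 CPM. Both were called higher in the glial gate, where 1.74% of all genes tested were. Among ligands, Gdnf was highest in second heart field at 9.21 CPM and Nrtn in surface ectoderm at 44.6 CPM. Of the 7 Erbb3 ligands and partner receptors, 4 were tested in the glial gate and none was called higher. Nrg1 (5.37 CPM) and Erbb4 (55.9 CPM) were called lower, where 5.58% of all genes tested were. The other gated cells include cardiomyocytes, with Erbb4 at 1111 CPM, and epicardium, at 807 CPM, and the glial level of Erbb4 was 6.72 times that of crest mesenchyme (6.09 to 7.4). Erbb2, the usual partner of Erbb3, stood at 12.7 CPM in the glial and 3.22 CPM in the neuronal gate. Nrg1 was high at 172 CPM in the neuronal gate and 180 CPM in endothelium.

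Of 10 crest specifiers, 9 were tested in the glial gate and 5 called higher, where 1.74% of all genes tested were. Tfap2b stood at 429 CPM there, Ets1 at 153 CPM, Pax3 at 88.6 CPM, Tfap2a at 57.1 CPM and Sox8 at 50.1 CPM. None of the 8 tested in the neuronal gate was called in either direction, where 4.51% of all genes tested were called higher and 2.76% lower. Among autonomic genes, whose calls are not tallied here, Insm1, a zinc-finger factor of neuroendocrine and neuronal precursors, stood at 22.1, 152 and 166 CPM in the glial, glial-neuronal and neuronal gates. Dbh, the enzyme that makes noradrenaline, stood at 0.658, 21.2 and 51.3 CPM in the same order, and Th, which makes the catecholamine precursor, at 0.11, 2.21 and 5.37 CPM. These genes are a part of a list of 9 and do not stand for all of it. Of the 8 autonomic genes that reached 10 CPM in some gate, 3 were highest outside the glial, glial-neuronal and neuronal gates. Of 9 sensory neuron genes, 7 were tested in the neuronal gate and called higher, where 4.51% of all genes tested were, among them Neurod1, Neurog2 (140 CPM) and Tlx3. Of 7 cranial motor neuron genes, 5 were tested in the neuronal gate, where Chat (18.6 CPM), Isl2 (53.2 CPM) and Slc18a3 (32.8 CPM) were called higher and Tbx20 lower. The 3 called higher were below 10 CPM in every other gate of at least 50 cells.

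Over the 16 gates with at least 50 cells, the genes most like each member were ranked by Pearson correlation of log2(CPM + 1) among 11768 genes, as a description with no p. The gates share libraries, and most genes are near 0 in most gates. Foxd3 was most like Gm32061 (0.993), Gm12688 (0.99) and Sox10 (0.989), and Sox10 was most like Foxd3, Gm32061 (0.982) and Gm12688 (0.976). The 5 genes most like Ret included Lgi4 (0.987, a glial marker), Insc (0.969) and Hoxb8 (0.968). Phox2a was most like Neurog2 (0.983), Clnk (0.949) and Sgpp2 (0.932). Erbb3 had weaker matches, led by Fhdc1 (0.885), 1700019D03Rik (0.877) and Nell2 (0.868). Among the members, Ret correlated with Foxd3 at 0.9 and with Phox2a at 0.6, and Phox2a with Sox10 at 0.28. With Spearman's correlation, 2 of the 5 leading genes were kept for Phox2a and none for the other 4 genes.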

How the data were processed

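Single-cell RNA was measured with a 10x Genomics 3′ kit, per the labels' protocols. The authors deposited 1 matrix of UMI counts, whole numbers per gene and cell barcode. Its header names Cell Ranger 5.0.0. The submitters' processing notes name mm10, CASAVA 1.8 and Seurat 4. The sources used here do not say how cells were called or whether some were removed before deposit.

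From the deposited counts, CPM was computed as UMIs summed over a gate's cells per 1000000. Intervals are exact at 95% (Poisson for CPM, Clopper-Pearson for shares, and the binomial-based interval for ratios) and cover counting error only. Total counts were 200462921 to 248426458 UMIs per library. The rule for calls required a fold of at least 4 and 10 CPM. Named were the 5 members, pathway genes by list, for each member the 5 genes most like it, and up to 10 genes with the largest fold per direction of each comparison, of which a part is printed. Some genes and 1 comparison over all genes are not reported here. Members, marker lists and comparisons were chosen with earlier results of these data known. Levels were not compared between genes. Gene positions are from GENCODE M21 and promoters from a RefSeq table. Analyses used Python 3.11.15, numpy 2.4.6, scipy 1.17.1 and pandas 2.3.3, and scripts were tested on simulated data. Alternatives changed the gate, the cell filter, depth, doublets, repeated barcodes, the fold and the libraries.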

Additional observations from a re-analysis of the deposited data

How the results depend on the processing

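No paired analysis was possible because no file used here links the libraries to the labelled samples. For the same reason streptozotocin against vehicle was not run. Thinning to 5000 and 10000 UMIs moved 67 and 58 of 80 shares, and requiring 2 UMIs moved 57. The other alternatives for shares only left out libraries. At 5000 UMIs, 10000 UMIs and at least 2 UMIs per cell, the glial shares were 60.2%, 81.4% and 94.5% for Sox10, 54.7%, 74.2% and 87.3% for Foxd3, and 34.7%, 58.1% and 76.7% for Erbb3. The glial-neuronal share for Ret was 36.7%, 65% and 65%, and the neuronal share for Phox2a at 5000 UMIs was 65.4%. Co-detection at 5000 UMIs and at 2 UMIs was 59.9% and 90.1% for Foxd3 among Sox10-detected glial cells, 7.17% and 15.7% for Ret among Phox2a-detected neuronal cells, and 11.4% and 27.7% for Foxd3 among Sox10-detected crest mesenchyme cells.

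Levels moved with the gate. Phox2a in the neuronal gate was 311 CPM at 3 markers, 432 CPM at 5, 409 CPM under the wider cell filter, 436 CPM without repeated barcodes and 474 CPM as a mean of cells. Sox10 in the glial gate was 211 CPM as a mean of cells. At 5 markers Foxd3 in the glial gate was 186 CPM and Ret in the glial-neuronal gate 88.6 CPM. Leaving out each library gave 192 to 211 CPM for Sox10, 171 to 187 for Foxd3 and 86.5 to 93.5 for Erbb3 in the glial gate, 101 to 114 for Ret in the glial-neuronal gate and 383 to 411 for Phox2a in the neuronal gate. The shares ran from 96.7% to 98.4%, 90.8% to 94%, 89.5% to 92.6%, 80.6% to 87.5% and 74.4% to 78.3% in that order. Co-detection ran from 92.6% to 95.7% in glial, 28.6% to 31% in neuronal and 14.2% to 16.5% in crest mesenchyme cells. The doublet alternative marked 1746 cells (4.86%), of them 3.81% of glial, 10% of glial-neuronal and 11.4% of neuronal cells. Leaving them out moved 20 of 80 levels and 1 of 10 co-detection values, with Sox10 at 192 CPM and Foxd3 at 187 CPM in the glial-neuronal gate.

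At folds of 2 and 8, the genes called higher and lower numbered 436 and 79, and 819 and 307, in the glial gate. They numbered 864 and 246, and 552 and 156, in the neuronal gate, and 38 and 2, and 48 and 3, for the Ret split. Leaving out each library gave 159 to 165 higher and 501 to 527 lower genes in the glial gate, 423 to 454 and 251 to 271 in the neuronal gate, and 6 to 13 and 6 to 9 for Ret. The cause of these shifts was not tested.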
